A study of Rattus norvegicus with 4 samples.

Results

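Il33, Casp1, Ccl2 and the inflammatory cytokine genes around them were followed in MAT-LyLu and G, a pair of rat prostate cancer cell lines derived from the Dunning tumour. The genes were the cytokines Il33, Il1a, Il1b, Il18 and Il6, the interleukin-33 receptor gene Il1rl1, the protease gene Casp1, the chemokines Ccl2 and Cxcl1 and the growth factor Csf1. Of these 10 genes, 9 had probe sets annotated to their symbol, out of 4736 named genes on the array, and they were read by 19 probe sets of 8799; the expression of Cxcl1 was not analysed here. The genes were chosen by their signals in this same comparison, MAT-LyLu against G, so those differences are given as a description with no test.

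MAT-LyLu is labelled as highly metastatic and G as non-metastatic, with no treatment given for either line, and G was the control group. Each line was measured on 2 oligonucleotide arrays hybridised with biotinylated cRNA made from total RNA. The labels name neither separate cultures nor passages, so spread between arrays of a line may be technical, and each line is a single line. Signals are linear and in arbitrary units, with array medians of 2998 and 3015 in MAT-LyLu and 3156 and 3049 in G. The background level, the 95th percentile of 23 control probe sets for bacterial, yeast and mouse transcripts, was 1891 and 2311 on the MAT-LyLu arrays and 1973 and 2143 on the G arrays. Where both arrays of 1 line fell below this level, the fold is a lower limit, given as "at least".

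The interleukin-1 family are cytokines that start inflammation by binding receptors partly related to Toll-like receptors and switching on NF-kappaB. Interleukin-1 beta and interleukin-18 are made as precursors that caspase-1 cuts inside the inflammasome, while interleukin-33 is held in the nucleus of epithelial, endothelial and stromal cells and is active when damaged cells release it. Interleukin-6, the monocyte attractant CCL2 and the macrophage growth factor CSF1 are common products of tumour and stromal cells responding to such signals.

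The DNA before the annotated starts of Il33 and Casp1 is shown because these genes differed in opposite directions between the lines, and that of Il6 because it holds a kappaB-type motif in front of a gene that stayed under the background level. The sequences are RefSeq's for build GRCr8, 250 bases ending 1 base before the start, read 5′ to 3′ on the gene's strand. Il33 has 2 annotated starts, at the ends of chr1:237115323-237115572 (plus strand) and chr1:237134696-237134945 (plus strand). The Casp1 stretch is chr8:10872580-10872829 (plus strand) and the Il6 stretch is chr4:5894576-5894825 (minus strand). Capitals mark matches to the motifs described next.
Il33 start 1: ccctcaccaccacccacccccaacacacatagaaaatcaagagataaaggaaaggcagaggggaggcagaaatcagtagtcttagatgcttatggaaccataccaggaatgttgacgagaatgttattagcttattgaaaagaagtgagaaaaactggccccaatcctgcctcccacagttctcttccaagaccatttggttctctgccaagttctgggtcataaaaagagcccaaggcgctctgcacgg
Il33 start 2: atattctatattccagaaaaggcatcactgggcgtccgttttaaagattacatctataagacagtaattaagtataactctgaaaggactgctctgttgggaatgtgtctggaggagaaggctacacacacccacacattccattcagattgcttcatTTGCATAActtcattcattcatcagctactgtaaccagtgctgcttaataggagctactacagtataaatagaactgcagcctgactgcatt
Casp1: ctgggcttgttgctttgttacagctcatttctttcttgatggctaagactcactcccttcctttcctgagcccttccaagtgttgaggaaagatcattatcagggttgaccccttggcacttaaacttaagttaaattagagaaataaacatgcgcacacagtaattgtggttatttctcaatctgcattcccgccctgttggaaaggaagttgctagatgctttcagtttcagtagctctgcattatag
Il6: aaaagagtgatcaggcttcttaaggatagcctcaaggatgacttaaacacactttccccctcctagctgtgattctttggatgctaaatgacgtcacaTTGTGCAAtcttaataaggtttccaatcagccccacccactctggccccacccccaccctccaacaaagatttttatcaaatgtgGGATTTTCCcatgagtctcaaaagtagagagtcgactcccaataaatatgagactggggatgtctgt

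A kappaB-type motif (GGANTTTCC), an AP-1 motif (TGANTCA), a C/EBP-type motif (TTGCNNAA) and the palindrome TTCNNNGAA were searched on both strands from 250 bases before to 50 after each start. RefSeq promoters were matched by symbol for 8 of the 10 genes, with 9 starts; Ccl2 and Csf1 were not matched. The kappaB-type motif stood before Il6 (GGATTTTCC, bases -67 to -59) and Cxcl1 (GGAATTTCC, bases -83 to -75), and 1.28% of 33469 promoters hold it. The C/EBP-type motif, found in 10.6% of promoters, stood before the start 2 of Il33 (TTGCATAA, bases -92 to -85), before Il6 and after the start of Il1b. The AP-1 motif, found in 7.33%, matched at Il1a and Il18, and the palindrome, found in 8.87%, matched at none of the 9. No matches overlapped, and neither Il33 start 1, Casp1 nor Il1rl1 held any of the 4 motifs in this window. A match is a string of letters and was not tested for function.

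**Figure D1:**
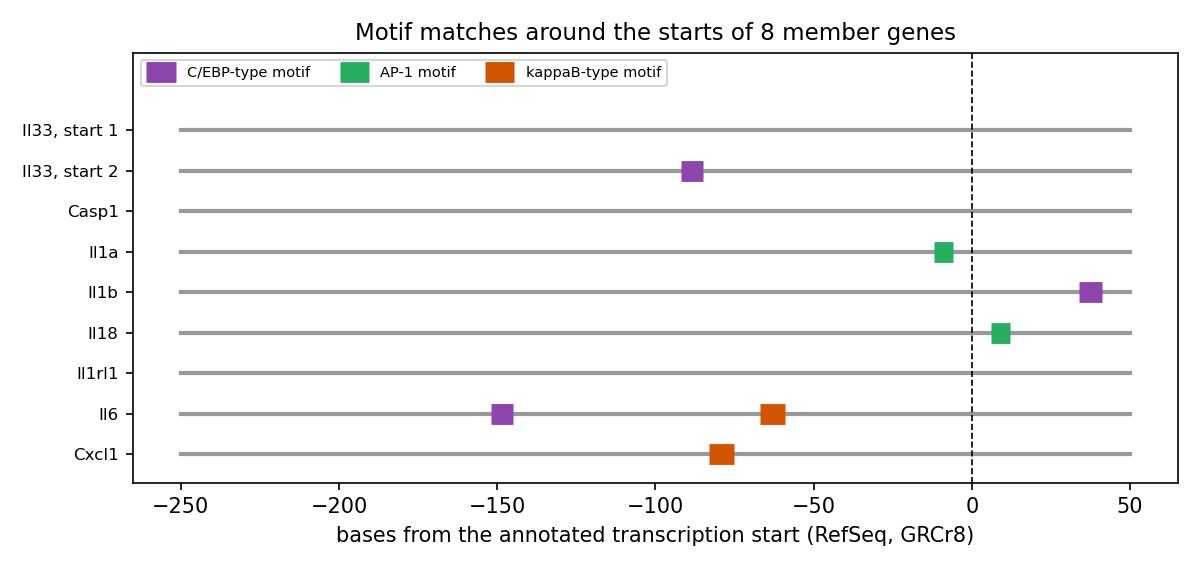
Positions of the motif matches from 250 bases before to 50 bases after the annotated start (dashed line) of 8 genes, 1 row per start. The kappaB-type motif (orange) appears in front of Il6 and Cxcl1 only among the 9 starts, and the rows of Casp1, Il1rl1 and Il33 start 1 are empty.

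Of the 9 genes measured, 3 differed by 2-fold or more between the lines, on 6 of the 19 probe sets, where 8.39% of all tested probe sets did; nothing is read from that share. Il33 was higher in MAT-LyLu, while Casp1 and Ccl2 were lower on all of their probe sets. The other 6 genes, Il1a, Il1b, Il18, Il1rl1, Il6 and Csf1, had 13 probe sets with log2 differences from -0.26 to 0.42. Of these 13, 9 were under the background level on all 4 arrays and 1, that of Csf1, was above it on all 4. In RNA of whole cultures, fewer cells expressing a gene and less RNA per cell cannot be told apart.

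Il33 had signals of 9866 and 9819 on the MAT-LyLu arrays, against 914 and 868 on the G arrays. The MAT-LyLu arrays lay within 0.0069 log2 units of each other and far above both G arrays, which were under the background level. The rise was at least 4.79-fold. The log2 difference of 3.44 takes in G signals under the background level, and it was 2.25 with signals raised to that level. Il33 was read by a single probe set (rc_AA892986_at), designed from an expressed sequence tag, so no other probe set checks this value.

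Il1rl1 encodes ST2, the receptor chain that binds interleukin-33, in membrane and secreted forms. Its probe set U04317_at had signals of 2271 and 2171 in MAT-LyLu, against 2061 and 2123 in G, and U04319_at had 2594 and 2128 in MAT-LyLu, against 1609 and 1917 in G. These values lie around the background level. For U04317_at 1 MAT-LyLu array and 1 G array were above it, and for U04319_at 1 MAT-LyLu array and 0 G arrays. The log2 differences were 0.09 and 0.42. The gap of 0.28 between the MAT-LyLu arrays and of 0.25 between the G arrays for U04319_at was more than 50% of its difference between the lines.

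Il1rap, the co-receptor that ST2 shares with the interleukin-1 receptor, was above background in both lines, at 3758 ± 191 in MAT-LyLu and 3918 ± 43.9 in G (SD, n = 2 arrays each) on its brighter probe set. It did not pass the test (limma log2 difference -0.06, SE 0.08, adjusted p = 0.63). In the RefSeq order of rat genes Il1rl1 lies between Il1rl2 and Il18r1, with Il1r1 beyond Il1rl2. Il1rl2, the interleukin-36 receptor, and Il1r1, the signalling interleukin-1 receptor, had limma log2 differences of 0.13 (SE 0.08, adjusted p = 0.29) and 0.05 (SE 0.10, adjusted p = 0.77) on their brightest probe sets. A dimmer probe set of Il1r1, U14010_g_at, was higher in MAT-LyLu (2519 ± 115 against 1984 ± 27.4 in G; limma adjusted p = 0.019), so the probe sets of this gene disagree.

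Il1a, whose product acts as a released alarm signal, had 3 probe sets. The brightest, D00403_at, had 2048 and 1777 in MAT-LyLu, against 2099 and 2280 in G, a log2 difference of -0.20. The arrays of the lines did not overlap, as for 67.4% of all tested probe sets, but the MAT-LyLu arrays were 0.20 log2 units apart. Of these, 1 was under background, and with signals raised to that level the difference was -0.0079. The other 2 probe sets were under background on every array, with differences of 0.03 and -0.06. All 3 probe sets of Il1b, the main secreted interleukin-1, were under background on every array, from 706 to 1555 in MAT-LyLu and from 558 to 1349 in G, with log2 differences of 0.13, 0.24 and 0.41. Both probe sets of Il18, which drives interferon gamma production, were also under it, from 836 to 1667 in MAT-LyLu and from 1052 to 1780 in G. For Il1b and Il18 a difference between the lines was therefore not detectable over background.

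Casp1 encodes caspase-1, the protease that cuts the precursors of interleukin-1 beta and interleukin-18 and the pore protein gasdermin D. Probe set S79676_s_at had signals of 1598 and 1780 in MAT-LyLu, against 12150 and 10847 in G. Probe set U14647_at had 189 and 223 in MAT-LyLu, against 6125 and 5829 in G, and U14647_g_at had 1478 and 1643 in MAT-LyLu, against 7990 and 8772 in G.

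All 3 Casp1 probe sets were under background on both MAT-LyLu arrays and above it on both G arrays, with no overlap. The falls were at least 5.49-fold, 2.86-fold and 4.0-fold, in the order above; these bounds depend on how bright G was and say nothing of which probe set fell most. The log2 differences of the signals as deposited were -2.76, -4.76 and -2.41, against gaps of 0.07 to 0.22 between arrays of a line. S79676_s_at can match related transcripts, as probe sets with _s in their name may, and Casp1 has Casp4 and Casp12, related caspase genes, as its next neighbours in the RefSeq order.

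**Figure D2:**
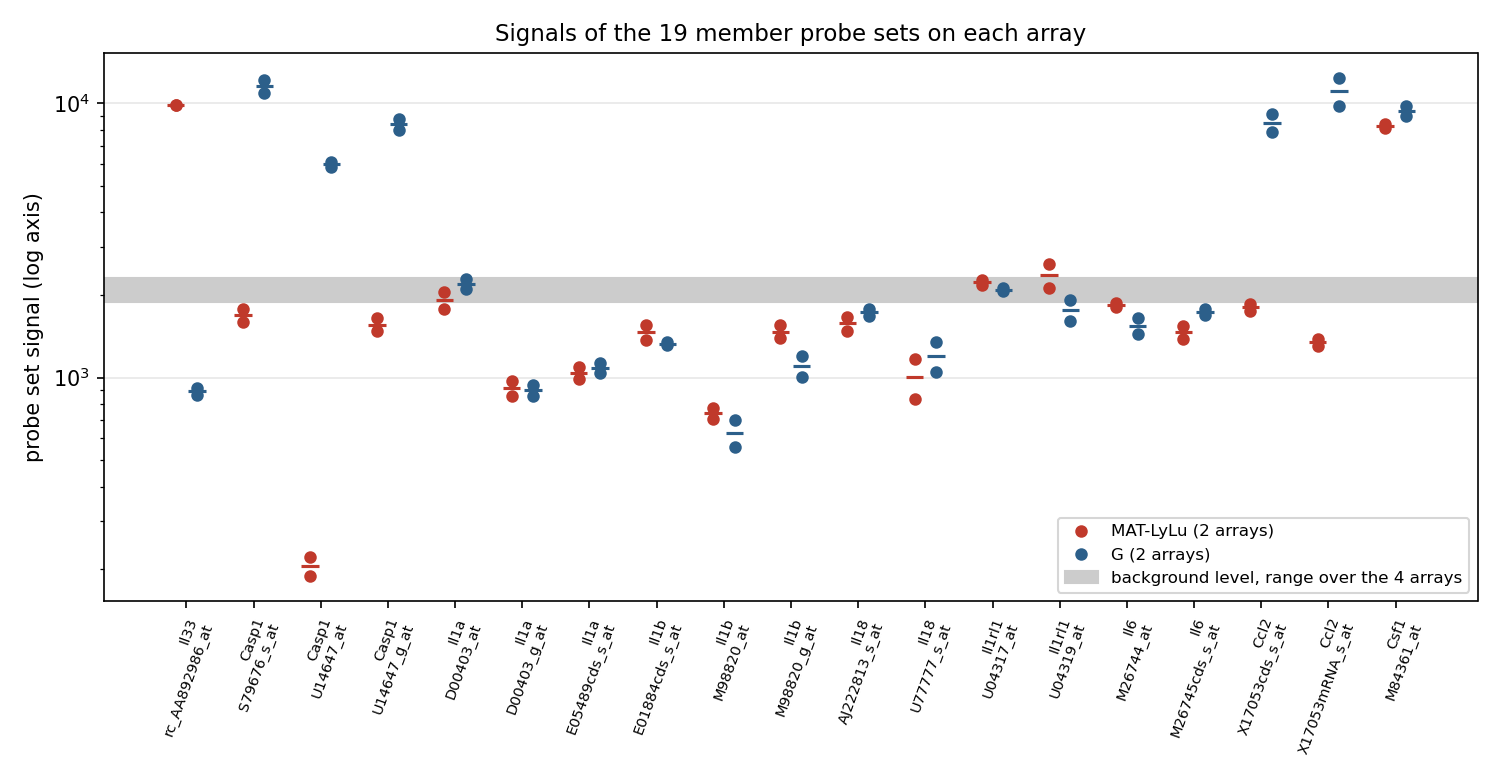
Signals of the 19 probe sets on each array (log axis), MAT-LyLu in red left of G in blue, 2 points per line with a bar at their mean; the grey band spans the background levels of the 4 arrays. Il33 is above the band in MAT-LyLu and below it in G, Casp1 and Ccl2 are the reverse, and Csf1 is above it in both lines.

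Ccl2 encodes the chemokine that draws monocytes through the receptor CCR2. Probe set X17053cds_s_at had signals of 1755 and 1849 in MAT-LyLu, against 9109 and 7868 in G, and X17053mRNA_s_at had 1382 and 1306 in MAT-LyLu, against 12351 and 9721 in G. Both were under background in MAT-LyLu and above it in G, and both are of the _s kind. The falls were at least 4.05-fold and 5.24-fold, with log2 differences of the signals as deposited of -2.22 and -3.01. The G arrays were farther apart for X17053mRNA_s_at, by 0.35 log2 units, than the MAT-LyLu arrays, by 0.08.

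Il6, the inducer of the acute phase response in the liver, was under background on every array. Its probe set M26744_at had 1803 and 1863 in MAT-LyLu, against 1655 and 1440 in G, and M26745cds_s_at had 1544 and 1386 in MAT-LyLu, against 1692 and 1779 in G. The probe sets differed in opposite directions, at log2 differences of 0.25 and -0.24, so no direction can be given for Il6.

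Csf1, which keeps macrophages alive and dividing, was bright in both lines, at 8393 and 8105 in MAT-LyLu, against 9726 and 8991 in G. The arrays of the lines did not overlap, as for 67.4% of all tested probe sets. Csf1 was lower in MAT-LyLu by 1.13-fold (log2 difference -0.18), and the gap between the G arrays was 0.11. Among the 9 genes it was the only one above background on all 4 arrays.

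Of the 19 probe sets, 12 passed the filter on low signals, which covered 8 of the 9 genes; all 3 of Il1b, 2 of Il1a and 1 each of Il18 and Casp1 did not. In the fit across all probe sets, 2 of these 12 (Il33 and U04319_at of Il1rl1) were higher and 4 (2 each of Casp1 and Ccl2) lower at an adjusted p under 0.05. Over all 6555 probe sets 13.6% were higher, 20.1% lower and 33.7% either. The call of U04319_at was lost in 4 of 12 alternatives: with signals raised to background, with the replicate block, without G replicate 0 and without MAT-LyLu replicate 0. The arrays of the lines did not overlap for 16 of the 19, where 67.4% of all tested probe sets did not. These counts are given for completeness and are no test of the genes, which were chosen with this contrast known. The median log2 difference was -0.19 over the 12 tested, against -0.03 over all probe sets tested, and -0.14 over the 19.

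**Figure D3:**
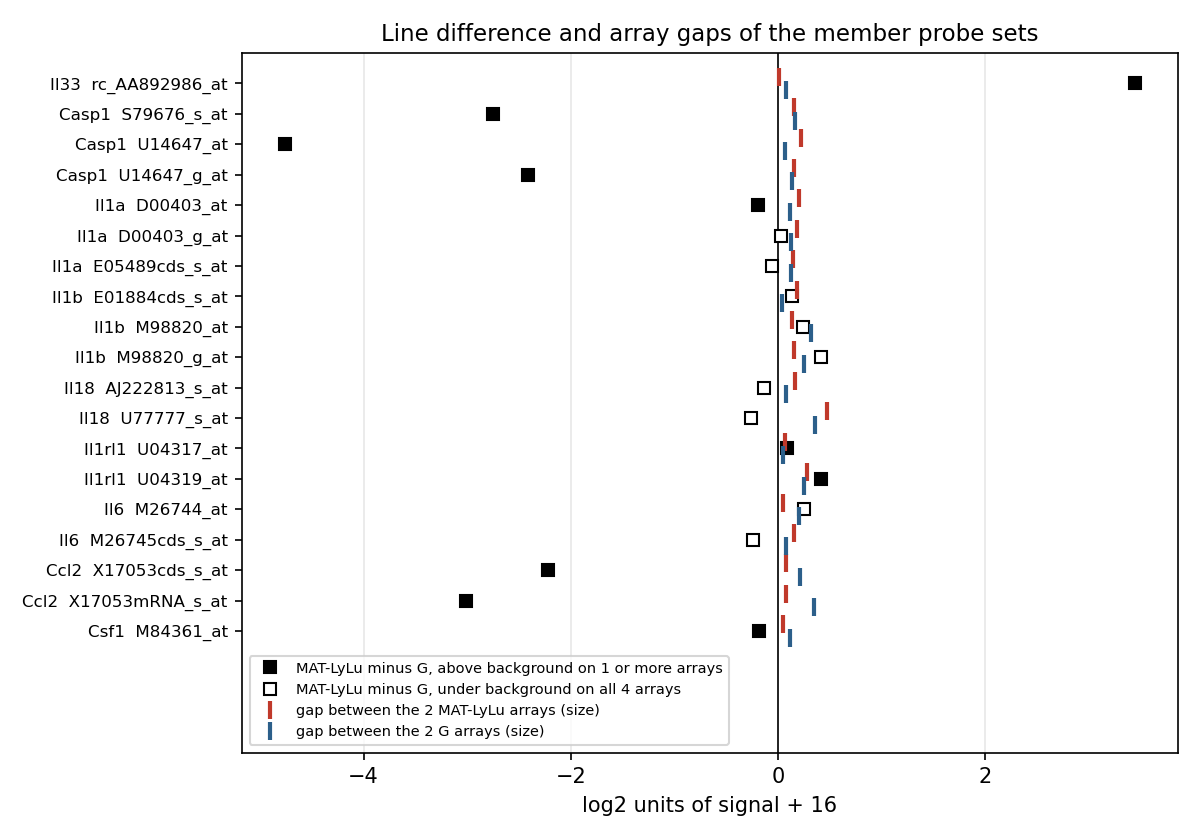
The log2 difference between the lines, MAT-LyLu minus G (squares, open where all 4 arrays were under background), of the 19 probe sets, with the size of the gap between the 2 arrays of each line (ticks, red MAT-LyLu and blue G). The 6 squares of Il33, Casp1 and Ccl2 lie beyond 2 log2 units, while the other 13 lie between -0.26 and 0.42, near the size of the gaps.

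Likeness was read as the Euclidean distance between log2 signals, centred on the mean of the 4 arrays, over the tested probe sets of named genes. Nearest to Il33 were Dusp6, Gja1 and Kiaa0040, at distances of 0.15, 0.16 and 0.21. Dusp6, an ERK phosphatase gene, had 20544 and 18084 in MAT-LyLu, against 1864 and 1632 in G. Gja1, which encodes connexin 43, had 6829 and 5947 in MAT-LyLu, against 621 and 596 in G. Nearest to S79676_s_at of Casp1 were the proteoglycan gene Dcn (0.09), Ndufa4l2 (0.11) and the intermediate filament gene Prph (0.12). Nearest to X17053cds_s_at of Ccl2 were Igf1 (0.09), App (0.10) and Dnph1 (0.11). The other probe sets of Casp1 and Ccl2 were not compared in this way. With 4 arrays in 2 lines this likeness is mostly the size of the line difference, and it is given as a description.

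The other genes of the inflammatory pathways were taken from 8 lists of ligands, receptors, signalling genes and induced genes. Of 248 such genes, 129 were on the array and 102 passed the filter, each read by its brightest probe set, the tested one with the highest mean log2 signal. At an adjusted p under 0.05 in limma, 11 were higher (10.8%) and 18 lower (17.6%) in MAT-LyLu, where 13.7% and 19.6% of all 3867 genes were. With quantile normalization 14 were higher and 14 lower. The median log2 difference was -0.05, against -0.02 over all genes.

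In the interleukin-1 family list, none of the 5 other genes tested (Il1rn, Il1r1, Il1r2, Il1rap and Il1rl2) passed in limma, and 0 had an unadjusted p under 0.05 (the lowest was 0.11). Their median log2 difference was 0.13. In the caspase and inflammasome list, 3 of 8 fell, 0 rose (0 at an unadjusted p under 0.05 in limma) and 5 did not pass. P2rx4, an ATP-gated channel, was 1.65-fold lower (2589 and 2655 in MAT-LyLu, against 4246 and 4406 in G; limma adjusted p = 3e-04). Ctsb, the lysosomal protease cathepsin B, was 1.58-fold lower (limma adjusted p = 0.0011). Serpinb9, which in mice and humans inhibits granzyme B, was 1.29-fold lower, and its call was lost without MAT-LyLu replicate 1 (limma adjusted p = 0.053). The other caspases measured did not pass: Casp2 had a limma log2 difference of -0.21 (SE 0.09, adjusted p = 0.12) and Casp6 of -0.30 (SE 0.13, adjusted p = 0.13). P2rx7, the ATP receptor best known for starting the inflammasome, had signals of 1894 and 2162 in MAT-LyLu, against 1866 and 1673 in G, near the background level. The probe sets of Txnip disagreed. Its brightest, rc_AI237654_at, did not pass (limma adjusted p = 0.17). The dimmer rc_AI014169_at was 2.02-fold lower, with 3657 and 3909 in MAT-LyLu, against 8181 and 7161 in G (limma adjusted p = 1.1e-04).

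Interleukin-6 family and JAK-STAT genes fell where they passed: 6 of 16 were lower, 0 higher (0 at an unadjusted p under 0.05 in limma) and 10 did not pass, with a median log2 difference of -0.21. A2m, an acute phase protein gene of rat liver, was 2.61-fold lower (9784 and 8202 in MAT-LyLu, against 24921 and 21852 in G; limma adjusted p = 6.6e-05). Its 6 probe sets all had lower means in MAT-LyLu, and 2 of the 4 tested passed. Stat5b was 1.51-fold lower (limma adjusted p = 0.0015). Cntf, a neurotrophic cytokine of this family, was at least 1.11-fold lower (limma adjusted p = 0.0038), but not with signals raised to the background level (adjusted p = 0.54). The other falls, Stat3, Pias3 and Il6st, named after their values were seen, each lost the call without at least 1 of the arrays. Stat3 also lost it with no filter, quantile normalization and median scaling (limma adjusted p = 0.051, 0.06 and 0.081). With quantile normalization Il6st lost it too (limma adjusted p = 0.056). Il6st encodes the shared receptor chain gp130 and was under background on all 4 arrays, as was the interleukin-6 receptor gene Il6r. Socs3, a feedback inhibitor induced by STAT3, had 5339 and 5521 in MAT-LyLu, against 5349 and 4802 in G, and did not pass (limma adjusted p = 0.45).

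Of 16 chemokine and chemokine receptor genes tested besides Ccl2, 2 rose, 0 fell (3 at an unadjusted p under 0.05 in limma) and 14 did not pass, and the median log2 difference was 0.01. Cxcl10, an attractant of T cells, was 1.30-fold higher (5921 and 5829 in MAT-LyLu, against 4597 and 4463 in G; limma adjusted p = 0.0079). Pf4 rose at least 1.06-fold (limma adjusted p = 0.0029), which did not hold with signals raised to the background level (adjusted p = 0.81). Ccl11, which lies beside Ccl2 with only Ccl7 between them in the RefSeq order, had 2049 and 2266 in MAT-LyLu, against 2562 and 2588 in G, and did not pass (limma adjusted p = 0.067). Cxcl2 and Cxcl3, neutrophil attractants related to Cxcl1, and Ccr2, the receptor of CCL2, were under background on all 4 arrays.

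Of 15 genes for colony stimulating factors, interleukins and their receptors, 1 rose, 3 fell and 11 did not pass. The probe sets of Kitlg disagreed: AF071204_at, its brightest, did not pass (limma log2 difference 0.20, adjusted p = 0.15). The dimmer AF071204_g_at was higher, with 3298 and 2739 in MAT-LyLu, against 1520 and 1435 in G, under background (limma log2 difference 1.02, adjusted p = 2.4e-04). Csf1r, the receptor of CSF1, had 5642 and 5819 in MAT-LyLu, against 5247 and 5111 in G, and did not pass (limma adjusted p = 0.21). Il2rb, a receptor chain for interleukin-2 and interleukin-15, was 1.37-fold higher (limma adjusted p = 0.014), with the call lost without G replicate 1 (0.056) or MAT-LyLu replicate 1 (0.061). The interferon receptor genes Ifnar1 and Ifngr1 fell (limma adjusted p = 3.1e-04 and 0.030), both under background in MAT-LyLu, and neither passed with signals raised to the background level (0.75 and 0.99). The third fall, Il5, named after its values were seen, lost its call when any 1 of the 4 arrays was left out. Its call was also lost with quantile normalization (limma adjusted p = 0.11).

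In the tumour necrosis factor family, 1 of 12 genes rose, 2 fell and 9 did not pass. Traf2, a signalling adaptor of these receptors, was 1.5-fold lower (limma adjusted p = 0.0011) and the receptor gene Cd40 at least 1.19-fold lower (limma adjusted p = 0.0011; 0.23 with signals raised to background). The rise, Cd40lg, was under background on all 4 arrays. Tnf itself had 2258 and 2116 in MAT-LyLu, against 2162 and 2442 in G, and did not pass. Tnfsf13 and Ngfr did not pass on their brightest probe sets (limma adjusted p = 0.64 and 0.095), but dimmer ones were lower. These were rc_AA891690_at and rc_AA891690_g_at of Tnfsf13 (limma log2 differences -0.72 and -0.64, adjusted p = 0.0044 and 0.0011) and X05137_at of Ngfr (-0.34, adjusted p = 0.016).

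Among NF-kappaB, Toll-like receptor and related regulator genes, 1 of 9 fell, 0 rose (0 at an unadjusted p under 0.05 in limma) and 8 did not pass. The fall was Irf7, an interferon regulatory factor, at 6.13-fold lower (2448 and 2588 in MAT-LyLu, against 16525 and 14383 in G; limma adjusted p = 5.5e-07). Nfkb1, a subunit of NF-kappaB, and the brighter probe set of its inhibitor gene Nfkbia did not pass (limma log2 differences -0.11 and -0.23, adjusted p = 0.50 and 0.090). The dimmer probe set of Nfkbia was lower (limma -0.28, adjusted p = 0.039). Irf1 and Cebpd did not pass on their brightest probe sets (limma adjusted p = 0.39 and 0.35), but dimmer ones were lower. These were M34253_g_at of Irf1 (limma -1.18, adjusted p = 1e-04), under background in MAT-LyLu, and M65149_at and rc_AI045030_s_at of Cebpd (-0.49 and -0.28, adjusted p = 0.0056 and 0.037).

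Genes that interleukin-1 and tumour necrosis factor are known to induce went both ways: 7 of 21 rose, 3 fell and 11 did not pass. Plau, the urokinase gene, was at least 3.33-fold higher (6807 and 6884 in MAT-LyLu, against 1291 and 1654 in G; limma adjusted p = 4.8e-06). Plaur, the receptor that holds urokinase at the cell surface, was 1.78-fold higher and Timp1, an inhibitor of metalloproteinases, 1.79-fold higher, both named after their values were seen. The other rises, also named after their values were seen, were Junb, Ier3, Hp and Mmp13. The call of Ier3 on its brightest probe set was lost without MAT-LyLu replicate 0. Its dimmer X96437mRNA_g_at was also higher, with 4463 and 2927 in MAT-LyLu, against 982 and 1003 in G, under background (limma adjusted p = 1.2e-04). For this probe set the MAT-LyLu arrays were 0.61 log2 units apart. Hp lost its call without G replicate 0 (0.15) or either MAT-LyLu array (0.19 and 0.090) and with the replicate block (0.052), and Mmp13 without any of the 4 arrays (0.073 to 0.21) and without the intensity trend (0.050).

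Vcam1, an adhesion molecule for leukocytes, was 2.43-fold lower (2137 and 2196 in MAT-LyLu, against 5637 and 4916 in G; limma adjusted p = 2.9e-05), and 1 MAT-LyLu array was above the background level. Its other probe set, M84488_at, had 163 and 204 in MAT-LyLu, against 4254 and 4156 in G. Mmp3, the metalloproteinase stromelysin-1, was 2.45-fold lower (limma adjusted p = 4.3e-05), and the third fall was Sod2. Icam1, another leukocyte adhesion molecule, and Gch1, the first enzyme of tetrahydrobiopterin synthesis, read unlike by probe set. D00913_at of Icam1, highest by mean log2 signal, did not pass (limma adjusted p = 0.14), and D00913_g_at, highest by mean linear signal, was 2.10-fold lower. For Gch1, rc_AI043643_at is highest by mean log2 signal and did not pass (limma adjusted p = 0.80). M58364_at, highest by mean linear signal, was higher, with 13276 and 12673 in MAT-LyLu, against 645 and 711 in G (limma adjusted p = 4e-08). E03424cds_s_at was also higher, with 6710 and 5765 in MAT-LyLu, against 548 and 452 in G (limma adjusted p = 3.8e-07). The remaining Gch1 probe set, rc_AA943102_s_at, was under background on all 4 arrays. With the linear choice the list had 8 rises, 4 falls and 9 genes that did not pass.

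**Figure D4:**
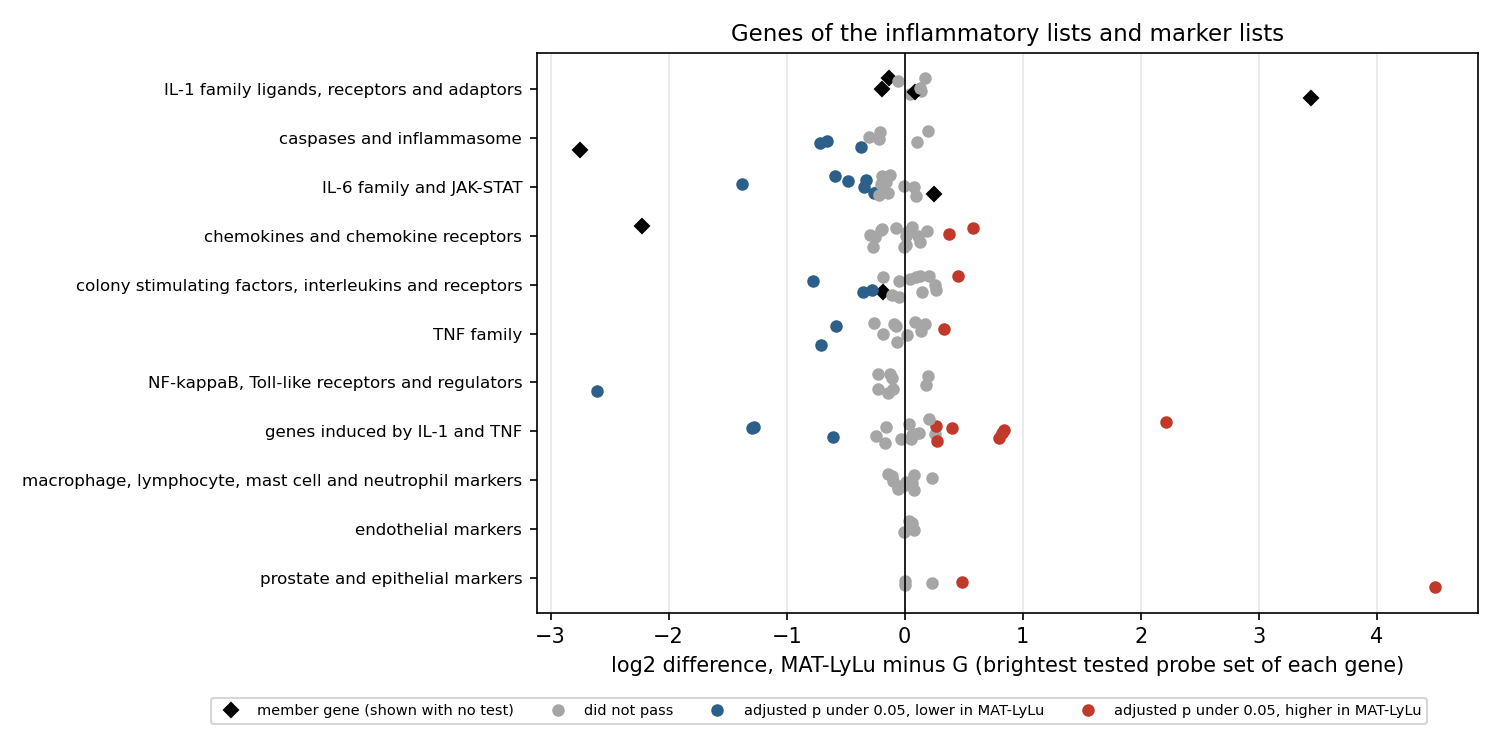
The log2 difference, MAT-LyLu minus G, of each gene in the 8 inflammatory lists and 3 marker lists, read by its brightest tested probe set; red and blue points passed the limma test at an adjusted p of 0.05, grey points did not, and black diamonds are the genes chosen for this comparison. Il33 (3.44), Casp1 (-2.76) and Ccl2 (-2.22) lie far from most other points of their lists.

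Markers of other cell types were read beside these values. Of 22 genes marking macrophages, lymphocytes, mast cells or neutrophils, 11 were under background on all probe sets and arrays, including Itgam, Lyz2, Cd2 and S100a9. The 11 tested were each above it on all 4 arrays on at least 1 probe set. Among them, on their brightest probe sets, were Aif1 (mean 9456 in MAT-LyLu and 8938 in G), Cd8a (7186 and 6793) and Ptprc (3376 and 3420). The other probe sets of Aif1 and Ptprc were under background on all 4 arrays, so the probe sets of these genes disagree. Of the 11 tested, 0 passed in limma and 1 was higher at an unadjusted p under 0.05 (0.034). The summed signal of the 22 genes was 69131 to 73810 in MAT-LyLu and 69761 to 70347 in G. Of 5 endothelial genes, 2 (Pecam1 and Kdr) were under background throughout and 0 of 4 tested passed in limma (0 at an unadjusted p under 0.05). Flt1, Vwf and Nos3 were above it on all 4 arrays on at least 1 probe set. A dimmer probe set of Nos3, U02534_at, was higher in MAT-LyLu (limma log2 difference 0.40, adjusted p = 0.01). The summed signal of the 5 endothelial genes was 34547 to 35432 in MAT-LyLu and 31427 to 34696 in G. Of 10 prostate and epithelial genes, 6 were under background on all arrays (Epcam, Pbsn, Krt14, Krt19, Msmb and Foxa1), so most markers of the tissue of origin were not detected in either line. Of 5 tested, 2 rose, Krt8 and Klk1. Klk1 rose on M19647_i_at (limma log2 difference 0.49, adjusted p = 0.023), where the MAT-LyLu arrays were 0.40 log2 units apart. Its other probe set, M19647_f_at, did not pass (limma -0.03, adjusted p = 0.87) and was under background on all 4 arrays. Krt8, a keratin of simple epithelia, had 41435 and 41521 in MAT-LyLu, against 1978 and 1691 in G, and the summed signal of the 10 genes was 60490 to 62272 in MAT-LyLu and 19668 to 20781 in G. Without Krt8 these sums were 19056 to 20751 in MAT-LyLu and 17977 to 18802 in G. The part of such markers in the differences of Il33, Casp1 and Ccl2 was not tested.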

How the data were processed

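The deposited table holds linear signal intensities, 1 column for each of 4 arrays (2 MAT-LyLu, 2 G). MAS5 is named in the submitters' processing notes; its version, scaling target and filters: not given in the sources used here. Groups came from the sample titles. Trimmed array means differed by 7.83%, under the planned limit of 10%, and no further scaling was applied. Symbols came from the platform annotation, updated through gene identifiers in RefSeq (6994 of 7018 probe sets with 1 symbol matched). Intensities were taken as log2(signal + 16), control probe sets and the lowest 25% of the others by mean log2 signal were left out, and 6555 were fitted with limma 3.58.1 in R 4.3.3 (lmFit, eBayes with an intensity trend, 2-sided, Benjamini-Hochberg over all 6555, threshold 0.05). The script was first tested on simulated data. An exact permutation of 2 against 2 arrays cannot go below p = 0.33, so the calls rely on limma's pooling of variance over probe sets.

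Folds are ratios of geometric mean signals, with a line under the background level on both arrays raised to that level. A list gene is read by its tested probe set with the highest mean log2 signal; the highest mean linear signal was an alternative added after seeing the data. The rule for genes named was all probe sets of the 9 genes, up to 3 called genes with the smallest p per list, the 3 genes nearest in pattern to Il33, Casp1 and Ccl2, and their receptors and partners; further list genes (such as Socs3, Tnf, Sod2, Icam1, Gch1, Nfkbia and Krt8) were named after their values were seen. The genes and lists were chosen with earlier results of these data known, and the background level was set after the values were seen. Alternatives changed the pseudocount (1, 64), filter, scaling, floor, variance model, replicate block, arrays used and probe sets per gene.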

Additional observations from a re-analysis of the deposited data

How the results depend on the processing

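Over the whole array, the probe sets called higher (891) and lower (1318) stayed within 1.5 times those counts in every alternative run. The balance between them depended on scaling: 1119 were higher and 1158 lower with quantile normalization, and 1063 and 1171 with median scaling. The 11 pathway genes called higher became 7 to 11 when 1 array was left out, with 7 without MAT-LyLu replicate 0 and 7 without MAT-LyLu replicate 1; the 18 lower became 15 to 17. With signals raised to the background level, 11 of 102 were higher and 12 lower. With the lower 50% of probe sets left out, 9 of 66 were higher and 12 lower. Averaging the probe sets of each gene gave 13 higher and 27 lower. Taking the probe set with the highest mean linear signal, an alternative chosen after seeing the data, gave 12 higher and 19 lower, with Gch1 and Icam1 added to the calls. With the replicate number as a replicate block, 10 pathway genes were higher and 18 lower, and 951 and 1402 probe sets; deviations of same-numbered arrays correlated at 0.16, and the labels do not say that a number marks a shared batch. Of the 29 pathway genes called, 14 kept the call in every alternative that tested them. With signals raised to the background level, Ifngr1 reversed to a log2 difference of 0.0022 and Il6st to 0.024, because nearly all their signals were under that level. Across the alternatives the log2 difference of Il33 ran from 2.25 to 3.49, of Casp1 S79676_s_at from -2.84 to -2.45 and U14647_g_at from -2.49 to -1.99, and of the 2 Ccl2 probe sets from -3.19 to -2.01, the values nearest 0 being those with the floor at background. Casp1 U14647_at entered the fit only with no filter or without a MAT-LyLu array, at -4.87 to -4.65. Signals under background limit what could be measured for Il1b, Il18 and Il6.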
